A study of Mus musculus with 10 samples.

Results

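The comparison described here set the polysome library of the control culture at passage 3 (P3) against the RNA-seq library of the same virus and passage. A gene was a member if either library gave it a value of 1 or more, which held for 12790 of the 17919 genes in the tables. The libraries were 2 of the 10 in the series. The cells were ICR mouse neural stem cells taken at embryonic day 10 from ventral midbrain. They carried a mock lentivirus as the control for a Lin28a virus and were passaged every 4 days. The labels give no strain other than ICR, no promoter for the virus and no number of embryos. The polysome libraries came from cytoplasmic lysates made with cycloheximide, a drug that holds ribosomes on RNA, and run on a sucrose gradient. Which part of the gradient was sequenced, and whether both libraries drew on the same dishes, is not stated in the sources used here. The RNA-seq library of the control culture at passage 1 (P1) and the P3 polysome and RNA-seq libraries of the Lin28a culture serve as side values below, and the P1 Lin28a RNA-seq library was used to sort genes by RNA level. There was 1 library per group, so no difference has a replicate check, no test was run, and all values describe these libraries.

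A messenger RNA under translation carries several ribosomes at once, and such polysomes sink far in a sucrose gradient. The polysome level of a gene against its level in RNA of the whole cell is used as a readout of how much of its RNA is engaged by ribosomes. Messenger RNAs that start with a terminal oligopyrimidine (TOP) tract, above all those of ribosomal proteins and elongation factors, are known to move between free particles and polysomes with nutrients and mTOR activity. Replication-dependent histone messenger RNAs end in a stem-loop without a poly(A) tail, as do many small structural RNAs, so libraries made from poly(A) RNA hold little of them. The descriptions call both libraries poly(A)-selected, while a total RNA kit is named. How much RNA without a tail each assay kept was not measured, so the ratios of such RNAs cannot be read as ribosome engagement.

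Most genes had a lower value in the polysome library. The quantity compared was the log2 ratio of polysome RPKM (reads scaled to gene length and library size) over RNA-seq FPKM (the same for fragments), each after adding 1, which understates the ratios of low genes. Past a 2-fold difference on this scale, 640 genes (5.00%) were higher and 3679 (28.8%) were lower in the polysome library, and 8471 lay within. The median ratio was -0.49, with the middle 50% of genes from -1.11 to 0.10. Nfatc2 was the gene just inside the threshold for entry, with 0.756 RPKM in the polysome library and 1.00 FPKM in RNA-seq, and 5730577I03Rik the gene just outside it, with 0.929 RPKM and 0.999 FPKM. Protein-coding genes were higher in 4.56% and lower in 29.0% of 12242 cases, while non-coding genes were higher in 15.0% and lower in 23.0% of 548 cases. Lin28a and Lin28b were below 1 in both libraries and did not enter.

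The balance of higher and lower genes rested on how the 2 libraries were scaled. As deposited, the values summed to 268307 in the polysome library and 571715 in RNA-seq, and 14.8% of the genes past 2-fold were higher in the polysome library. With the median of -0.49 subtracted from every ratio, the counts became 1573 higher and 1945 lower, a share of 44.7% higher. With both libraries set to the same sum over protein-coding genes other than replication-dependent histones, polysome values were multiplied by 2.37, the median became 0.61, and 4261 genes were higher and 936 lower (33.3% and 7.32% of the genes tested), a share of 82.0% higher. Levels are therefore best read against the median of all genes, and most groups are given below with their median and their counts of higher and lower genes under this rescaling beside them. Those counts are to be read against 33.3% and 7.32%. Between 12028 and 12396 genes reached 1 in each library. Cytosolic ribosomal protein genes made up 3.22% of the polysome sum and 16.1% of the RNA-seq sum, and replication-dependent histone genes made up 5.96% and 0.0312%. Genes with no estimate were listed at a floor of 0.00204 RPKM in the polysome library (1878 genes) and 4.8e-07 FPKM in RNA-seq (1418 genes).

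**Figure D1:**
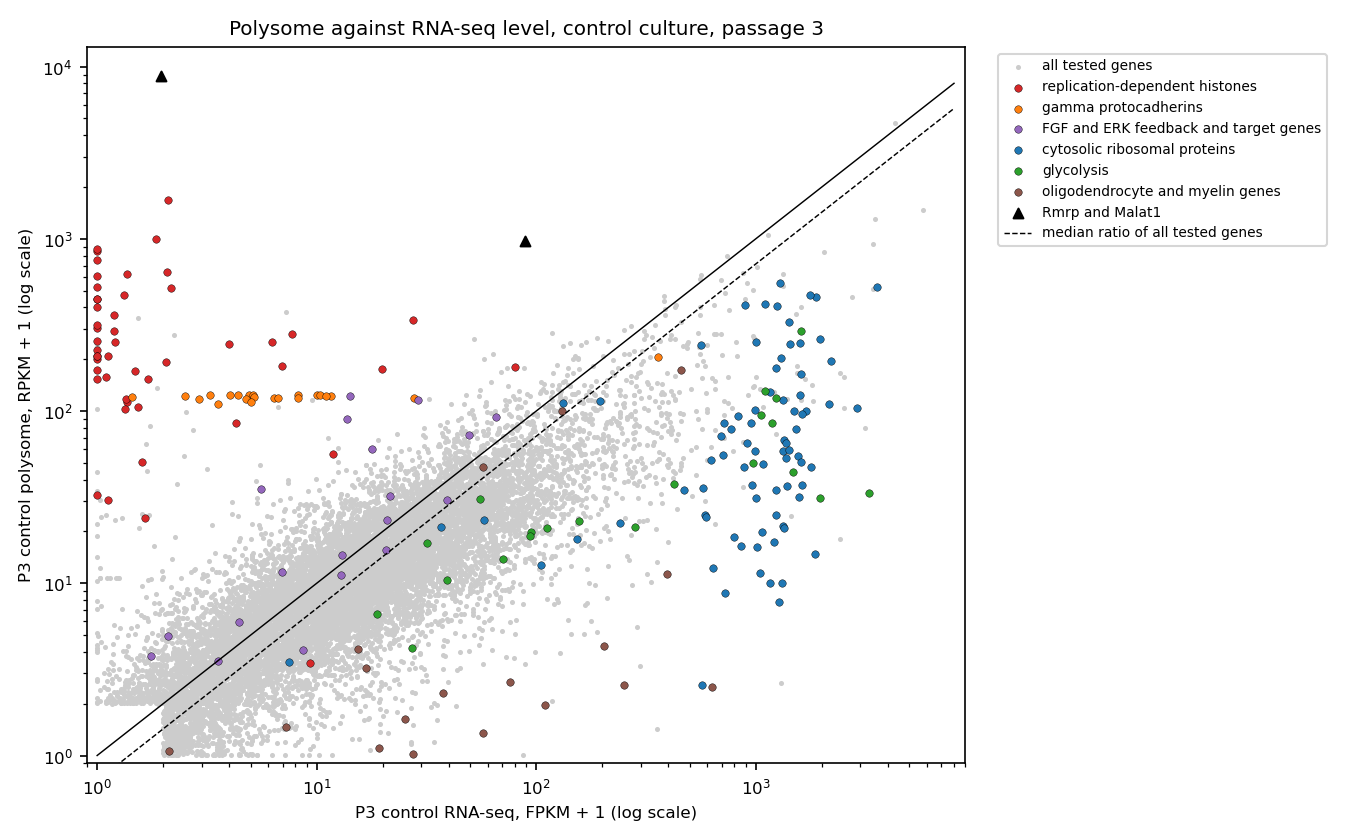
Each point is 1 of the 12790 genes, with its polysome RPKM + 1 on the vertical axis and its RNA-seq FPKM + 1 on the horizontal axis, both on log scales, with the line of equal values (solid) and the median ratio of -0.49 (dashed). Histone genes stand at the upper left at a median of 226 RPKM, gamma protocadherins form a flat row, and ribosomal protein, glycolysis and myelin genes lie to the lower right.

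**Figure D2:**
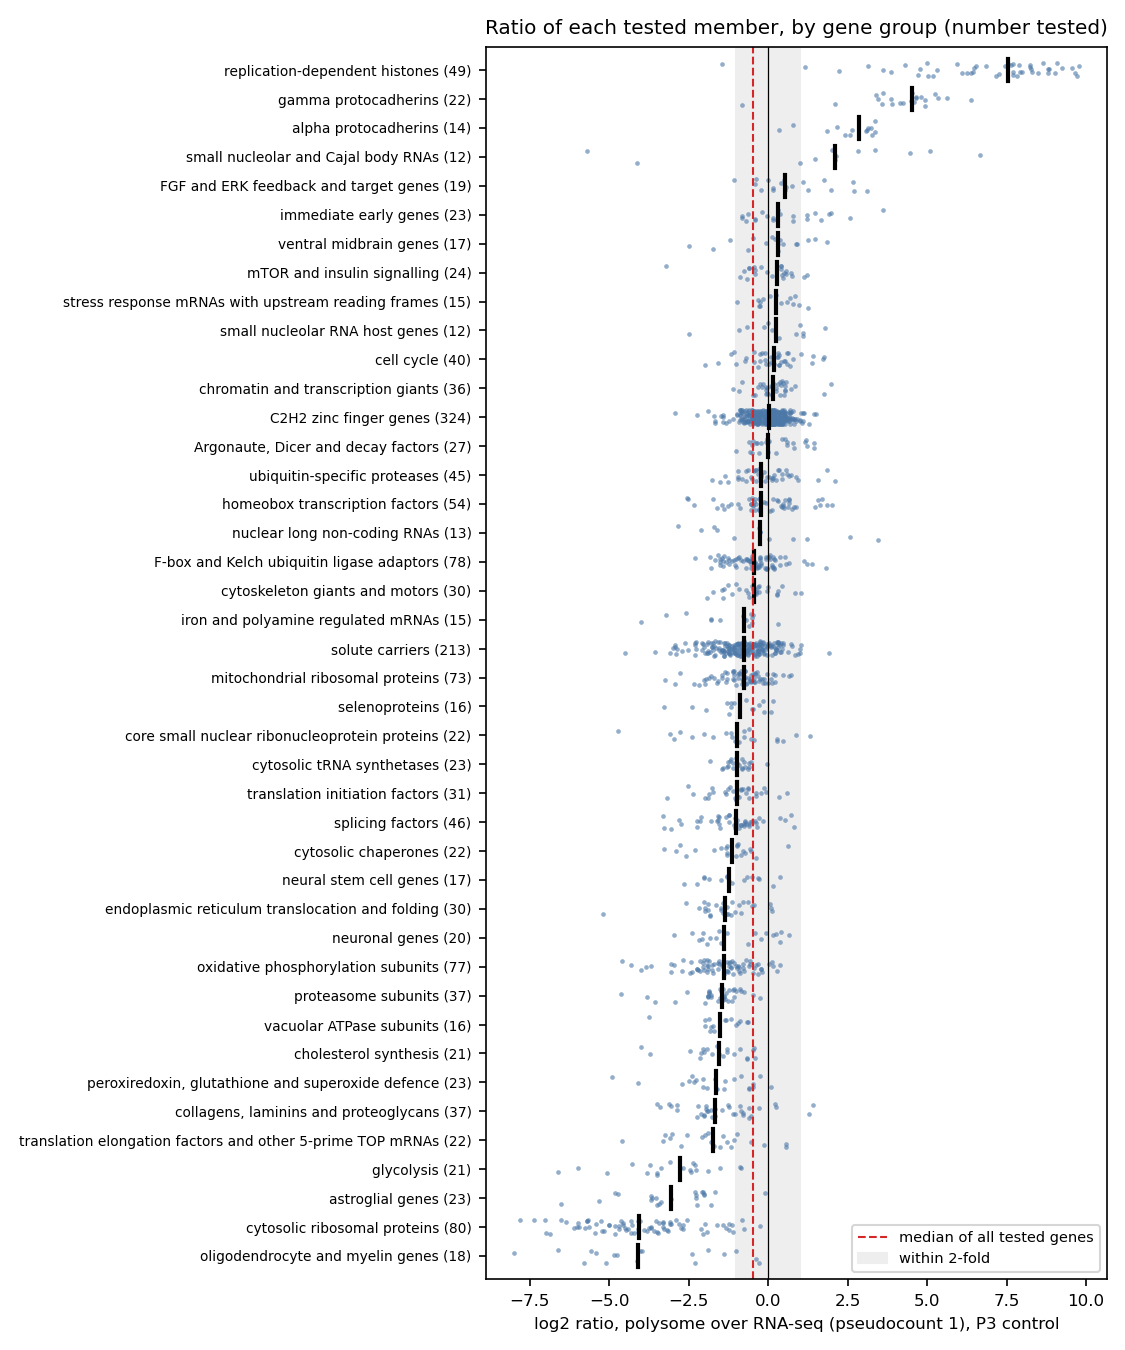
Log2 ratio of polysome over RNA-seq for each tested member (dots) of the gene groups with at least 12 tested members, with the group median as a bar, the median of all tested genes as a dashed line and the 2-fold band shaded. Medians ran from -4.08 for oligodendrocyte and myelin genes and -4.04 for ribosomal proteins to 7.54 for replication-dependent histones.

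Replication-dependent histones stood highest. Of 49 genes of the histone clusters, 48 were higher in the polysome library and 1 was lower, against 5.00% and 28.8% of all genes. Their median level was 226 RPKM in the polysome library and 0.320 FPKM in RNA-seq. The H4 gene Hist1h4d, which encodes a core histone of the nucleosome, was at 1681 RPKM in the polysome library and 1.11 FPKM in RNA-seq, a log2 ratio of 9.64. The H4 genes Hist1h4f and Hist1h4a were at 874 and 846 RPKM in the polysome library and were listed at the floor in RNA-seq. In all, 18 of the 49 were at that floor, and the other 31 had a median ratio of 6.37. The members with the most RNA-seq signal had low ratios within the group. The ratio divides by that signal, so this is partly built in. Hist3h2ba had 179 RPKM in the polysome library and 78.8 FPKM in RNA-seq (1.18). The linker histone gene Hist1h1c had 174 RPKM and 18.9 FPKM (3.14). Hist2h2be was the 1 member lower in the polysome library, with 2.45 RPKM against 8.37 FPKM (-1.44). Copies of 1 histone type differ by few bases, so the split of reads among them is uncertain.

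Histone variants that do carry a poly(A) tail did not share that height. Of 11 such genes, 1 was higher and 5 were lower, with a median of -0.78 that became 0.45 after rescaling, with 4 higher and 2 lower. The replacement histone genes H3f3a and H2afz were at 65.3 and 40.7 RPKM in the polysome library, against 870.0 and 272 FPKM in RNA-seq, ratios of -3.71 and -2.71. H2afx, whose protein marks DNA breaks and whose gene can also make a stem-loop transcript, had 176 RPKM in the polysome library and 72.7 FPKM in RNA-seq (1.26). The centromere histone gene Cenpa had 75.4 RPKM and 38.6 FPKM (0.95). The variants thus ran from -3.71 to 1.26, all of them below the median of the replication-dependent genes.

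Structural RNAs without a poly(A) tail were also high in the polysome library. Rmrp, the RNA of RNase MRP, was the highest gene of that library, with 8850.0 RPKM against 0.954 FPKM in RNA-seq (12.15). Rpph1, the RNA of RNase P, which trims transfer RNAs, had 277 RPKM and 1.24 FPKM (6.96). The Cajal body RNA Scarna13, which guides the modification of small nuclear RNAs, had 101 RPKM and was listed at the floor in RNA-seq. Of 12 small nucleolar and Cajal body RNAs 10 were higher and 2 lower, but 9 of them were at the floor in RNA-seq, and among the 3 with an estimate in both libraries 1 was higher and 2 were lower. The 2 lower ones, Snora28 and Snora30, had 9.07 and 4.58 RPKM in the polysome library, against 173 and 286 FPKM in RNA-seq, and were at the floor in P1 control RNA-seq, so values of these very short genes were unstable between RNA-seq libraries.

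Long non-coding RNAs that act in the nucleus split. Malat1, an abundant RNA of nuclear speckles, had 968 RPKM in the polysome library and 87.6 FPKM in RNA-seq (3.45). Rmst, a midbrain progenitor RNA known to bind the factor Sox2, had 10.8 RPKM against 0.972 FPKM (2.58). The other end held Xist, the RNA that coats the inactive X chromosome, with 7.52 RPKM against 60.2 FPKM (-2.85), and the imprinted RNA Meg3, with 2.82 RPKM against 15.5 FPKM (-2.11). Neat1, which builds nuclear paraspeckles, had 2.64 RPKM and 10.1 FPKM (-1.61). The 13 tested members thus spanned -2.85 to 3.45, 3 of them higher and 5 lower (median -0.25, but 0.66 after rescaling, with 4 higher and 2 lower). The lysis step of the polysome protocol pelleted nuclei, and these nuclear RNAs did not share 1 direction. Which of them carried a poly(A) tail was not measured. The limit given above for RNAs without a tail may thus apply here as well, also to Malat1.

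Host genes of small nucleolar RNAs, whose spliced transcripts have no long reading frame, stood above the median of all genes in 9 of 12 cases. Their median ratio was 0.23 (1.45 after rescaling, with 8 higher and 1 lower), with 4 higher and 1 lower past 2-fold. Gas5, a TOP transcript named for its rise in growth-arrested cells, had 59.2 RPKM in the polysome library and 16.5 FPKM in RNA-seq (1.78). Snhg5 had 40.8 RPKM against 18.6 FPKM (1.09) and Snhg8 had 28.5 RPKM against 13.6 FPKM (1.02). Snhg6 was the 1 gene lower past 2-fold, with 10.1 RPKM against 60.5 FPKM (-2.47). Snhg11 (-0.91) and Snhg10 (-0.67) also lay below the median of all genes.

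Cytosolic ribosomal protein genes stood lowest among the large groups. Of 80 genes 77 were lower past 2-fold and none was higher, and the median ratio was -4.04 (-2.82 after rescaling, with 66 still lower). Their median level was 56.0 RPKM in the polysome library and 1186 FPKM in RNA-seq. Rpl21 and Rps29, proteins of the large and small subunit, were at 1.56 and 6.83 RPKM in the polysome library, against 569 and 1273 FPKM in RNA-seq, ratios of -7.80 and -7.35. The range among members was wide. Rpl26 had 110.2 RPKM in the polysome library and 132 FPKM in RNA-seq (-0.26), and Rpl22 had 114 RPKM against 195 FPKM (-0.77).

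Ribosomal protein genes have many processed pseudogenes, and the size of the ratio moved with them. The 15 members with no entry named as their pseudogene in the RefSeq gene table were all lower, with a median of -2.75 and median levels of 242 RPKM in the polysome library and 1157 FPKM in RNA-seq. The 65 members with 1 or more such entries were lower in 62 cases, with a median of -4.27 and median levels of 49.3 RPKM and 1207 FPKM. Levels in RNA-seq were alike in both sets, while polysome levels were not. Entries named as pseudogenes went both ways. Rplp2-ps1 had 346 RPKM in the polysome library and 0.536 FPKM in RNA-seq, while its parent Rplp2, a protein of the ribosomal stalk, had 36.2 RPKM and 1616 FPKM. Rpl34-ps1 had 1.63 RPKM against 1299 FPKM (-8.95), the lowest ratio of all, while Rpl34 had 2.51 RPKM against 6.50 FPKM. Values of near-identical copies are uncertain, since the 2 assays may have split their reads in different ways, and the part of this splitting in the low ratios was not tested.

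TOP tracts were looked for at the annotated starts of these genes, and a few starts are shown because TOP tracts are what the ribosomal protein and host genes are known to share. Each line below gives the RefSeq promoter table (GRCm38.p6) from 10 bases before the start to 20 bases from it on, on the sense strand, with the pyrimidine run in capitals. The windows lie at chr17:33955646-33955675, minus strand for Rps18, chr7:4792955-4792984, plus strand for Rpl28, chr7:3704031-3704060, plus strand for Rps9, chr9:78481705-78481734, minus strand for Eef1a1, chr4:132308668-132308697, plus strand for Snhg12, chr3:123508317-123508346, minus strand for Snhg8 and chr5:65391412-65391441, minus strand for Rpl9.
Rps18: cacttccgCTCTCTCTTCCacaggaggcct
Rpl28: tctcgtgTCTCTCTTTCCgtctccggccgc
Rps9: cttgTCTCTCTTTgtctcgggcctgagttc
Eef1a1: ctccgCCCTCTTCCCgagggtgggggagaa
Snhg12: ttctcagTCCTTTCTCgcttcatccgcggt
Snhg8: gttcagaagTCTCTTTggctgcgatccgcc
Rpl9: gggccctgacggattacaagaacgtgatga
Rps18 (ratio -6.86), Rpl28 (-4.82) and Rps9 (-1.91) each hold a run of C and T at the start, as do the host genes Snhg12 (0.89) and Snhg8 (1.02), while the Rpl9 window (-7.03) holds none.

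A run was counted where at least 6 unbroken C or T letters on the sense strand covered the start or began within 5 bases of it, and no other motif was searched. It was found for 27 of 59 ribosomal protein genes with a promoter entry (45.8%), 7 of 15 elongation factor and other known TOP genes (46.7%) and 5 of 10 host genes (50.0%), against 15.9% of the 27025 genes in the table and 16.1% of tested genes. Mitochondrial ribosomal protein genes held one in 9.38% of cases. Within the ribosomal protein genes the ratio did not follow the run, with a median of -4.09 for the 27 genes with a run and -4.04 for the 32 without. Among elongation factor and other TOP genes the medians were -1.52 with a run and -2.43 without. Among host genes they were 0.89 and -0.13. Starts in the table can lie off the start used in these cells, so a missing run says only that these letters are not in this window. For the same reason a run that was found, such as that of Eef1a1, need not lie in the RNA or at its first base.

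Other parts of the translation machinery were low to a smaller extent. Elongation factors and other known TOP messenger RNAs were lower in 17 of 22 cases and higher in none, with a median of -1.75 (-0.51 after rescaling, with 3 higher and 7 lower). Eef1a1, which brings aminoacyl-tRNA to the ribosome and was the highest gene of the RNA-seq library, had 1461 RPKM in the polysome library and 5781 FPKM in RNA-seq (-1.98). Tpt1, the translationally controlled tumour protein, had 103 RPKM against 2513 FPKM (-4.59). Eef2, the translocation factor, had nearly equal values, with 1049.8 RPKM against 1135 FPKM (-0.11), and Eif4b, a helper of the RNA helicase Eif4a, had 249.8 RPKM against 168 FPKM (0.57). The genes of this list, which leaves out ribosomal proteins, thus ran from -4.59 to 0.57.

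Initiation factors were lower in 15 of 31 cases, or 48.4% against 28.8% of all genes (median -0.99, but 0.23 after rescaling, with 4 higher and 3 lower). The helicase gene Eif4a1 was the lowest, with 37.4 RPKM in the polysome library and 349 FPKM in RNA-seq (-3.19), and Eif4g2, which drives initiation without the cap-binding factor, was the highest, with 242 RPKM against 159 FPKM (0.60). Cytosolic tRNA synthetase genes kept close together, between -1.84 and -0.03, with 11 of 23 lower (47.8%). Their median was -0.98 (0.19 after rescaling, with 1 higher and 0 lower). Mitochondrial ribosomal protein genes were nearer to the median of all genes than the cytosolic ones, with a median of -0.75 (0.41 after rescaling, with 14 higher and 4 lower). Of these 73 genes 26 were lower (35.6%), near the 28.8% of all genes. Mrpl54 had 97.5 RPKM in the polysome library and 58.9 FPKM in RNA-seq (0.72), and Mrpl23 had 6.42 RPKM against 68.7 FPKM (-3.23).

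Energy metabolism was low in the polysome library. Glycolysis genes were lower in 19 of 21 cases and higher in none, with a median of -2.76 (-1.65 after rescaling, with 0 higher and 17 lower). Gapdh, which oxidises glyceraldehyde phosphate, had 32.4 RPKM in the polysome library and 3284 FPKM in RNA-seq (-6.62), with 1254 FPKM at P1. Pgk1, the next enzyme of the pathway, had 30.2 RPKM against 1963 FPKM (-5.98). Entries named as pseudogenes were counted for ribosomal protein genes alone. The part of near-identical copies in the low ratios of Gapdh, Pgk1 and genes of other groups was therefore not tested. The 2 members within 2-fold were Pdk1, a kinase that limits entry into the citric acid cycle (29.9 RPKM, 54.3 FPKM, ratio -0.84), and the enolase gene Eno2 (16.2 RPKM, 30.7 FPKM, ratio -0.88). The median level of the group was 29.9 RPKM in the P3 polysome library, 279.8 FPKM in P3 RNA-seq and 45.4 FPKM in P1 RNA-seq. Over P1 RNA-seq in place of P3, the median ratio of the group was -0.76.

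Subunits of oxidative phosphorylation were lower in 52 of 77 cases (median -1.40, -0.19 after rescaling, with 8 higher and 15 lower). The ATP synthase gene Atp5g2 had 35.2 RPKM in the polysome library and 875 FPKM in RNA-seq (-4.60), while Cox7b of cytochrome oxidase had 199 RPKM against 154 FPKM (0.37) and Ndufa6 of complex I had 255 RPKM against 211 FPKM (0.27). Atp5g2 was the lowest member of the list and Cox7b and Ndufa6 the highest, and the list was not split by complex. Proteasome genes were lower in 31 of 37 cases (median -1.45, -0.26 after rescaling, with 0 higher and 5 lower). Psma5 of the core ring was at 2.98 RPKM against 97.3 FPKM (-4.63), and Psmd8 of the lid at 100.2 RPKM against 119.9 FPKM (-0.26). Subunits of the vacuolar proton pump, a list added after values were seen, were lower in 12 of 16 cases (median -1.52, -0.38 after rescaling, with 0 higher and 1 lower), and Atp6v0c was the lowest, with 22.1 RPKM against 306 FPKM (-3.73).

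Folding, secretion and defence genes were likewise on the low side. Endoplasmic reticulum translocation and folding genes were lower in 21 of 30 cases (median -1.35, -0.13 after rescaling, with 3 higher and 3 lower). The translocon subunit gene Sec61g had 4.23 RPKM in the polysome library and 189 FPKM in RNA-seq (-5.18), while Manf, a secreted factor induced by unfolded proteins, had 49.4 RPKM against 45.6 FPKM (0.11). Cytosolic chaperone genes were lower in 12 of 22 cases (median -1.15, but 0.08 after rescaling, with 1 higher and 5 lower), from Dnaja1 with 4.95 RPKM against 56.6 FPKM (-3.28) to Bag1 with 99.0 RPKM against 64.2 FPKM (0.62). Among peroxide, glutathione and superoxide defence genes 16 of 23 were lower (median -1.64, -0.47 after rescaling, with 1 higher and 7 lower). The glutathione transferase gene Gstm1 was at 21.0 RPKM against 653 FPKM (-4.89) and the peroxidase gene Gpx1 at 134 RPKM against 125 FPKM (0.10).

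Lipid, matrix and iron genes covered a wide range. Cholesterol synthesis genes were lower in 15 of 21 cases (median -1.54, -0.36 after rescaling, with 0 higher and 3 lower), led by Fdps, which makes farnesyl diphosphate, with 6.79 RPKM in the polysome library and 125 FPKM in RNA-seq (-4.01). Insig1, a sterol sensor in the same list, had 61.9 RPKM against 84.7 FPKM (-0.45). Of 37 collagen, laminin and proteoglycan genes 25 were lower and 2 higher (median -1.68, -0.64 after rescaling, with 4 higher and 10 lower). The brain proteoglycan gene Bcan was lowest, with 28.3 RPKM against 329 FPKM (-3.49), and the fibrillin gene Fbn2 highest, with 4.89 RPKM against 1.20 FPKM (1.42). The ferritin chains Ftl1 and Fth1, whose messenger RNAs carry the iron-responsive element that holds back translation when iron is scarce, were at 157 and 165 RPKM in the polysome library, against 2513 and 1534 FPKM in RNA-seq (-3.99 and -3.21). The transferrin receptor gene Tfrc, with such elements at the other end, had 31.3 RPKM against 53.0 FPKM (-0.74). Among 16 selenoprotein and selenium pathway genes 8 were lower (median -0.88, 0.33 after rescaling, with 4 higher and 2 lower).

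Many of the low groups were abundant, and the ratio moved with RNA level among genes at 1 FPKM or more. To set this out with a library on neither side of the ratio, genes were sorted by their FPKM in P1 Lin28a RNA-seq. That library shares its assay with the RNA-seq side. A gene read too high by RNA-seq would thus sort high and have a low ratio, so part of the trend may be built in. The median ratio was -0.54 for the 859 genes below 1 FPKM there (15.8% higher and 28.6% lower), -0.30 for the 2504 genes at 1 to 5 FPKM, -0.33 for the 5013 genes at 5 to 20, -0.58 for the 2711 at 20 to 50, -0.90 for the 990 at 50 to 100, -1.28 for the 408 at 100 to 200, -1.78 for the 190 at 200 to 500 and -3.30 for the 115 at 500 or more. In that last class 108 genes (93.9%) were lower. The class held many of the cytosolic ribosomal protein genes, whose median in that library was 824 FPKM. Among the 713 genes at 100 or more, 486 (68.2%) were lower, with a median of -1.56. At that level 73 of 75 ribosomal protein genes were lower (median -4.09), as were all 10 glycolysis genes (-3.77) and 11 of 11 endoplasmic reticulum genes (-1.83), against 34 of 50 oxidative phosphorylation genes (-1.37) and 1 of 6 cell cycle genes (-0.07). Actb, the cytoplasmic actin gene, was abundant without a low ratio, with 791 RPKM in the polysome library and 736 FPKM in RNA-seq (0.10), whereas the tubulin gene Tuba1a had 113 RPKM against 1831 FPKM (-4.01). Not all low groups were abundant. In the P1 Lin28a library collagen, laminin and proteoglycan genes had a median of 13.1 FPKM and oligodendrocyte genes 0.981 FPKM, against 12.5 FPKM for all genes tested. The part of RNA level in the low medians of these groups was not tested.

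**Figure D3:**
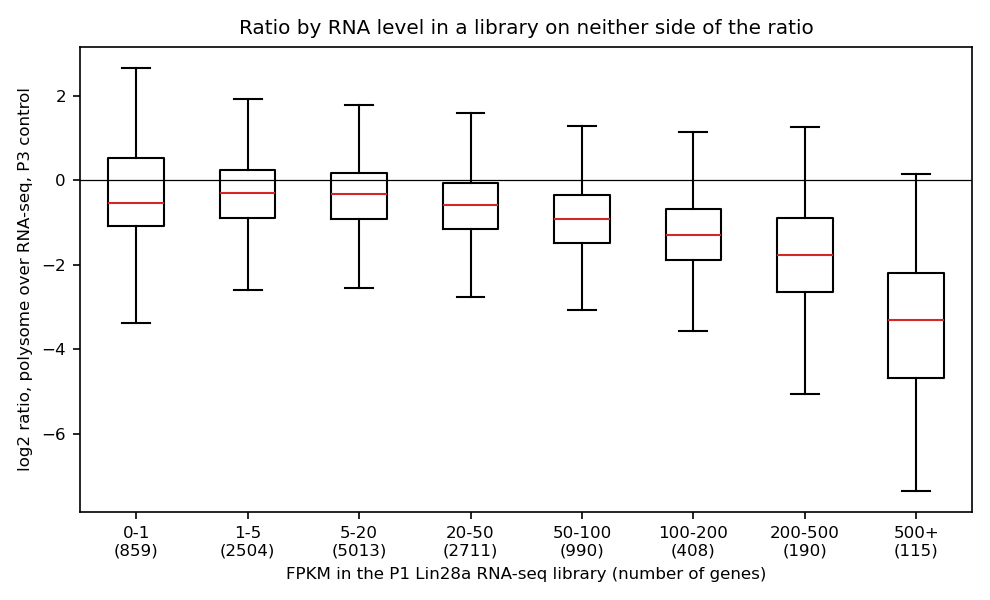
Log2 ratio of polysome over RNA-seq in P3 control for genes grouped by FPKM in the P1 Lin28a RNA-seq library, with the number of genes under each class. Boxes span the middle 50% of genes, red lines are medians, whiskers reach the last gene within 1.5 box lengths, and the median was -0.54 below 1 FPKM, then ran from -0.30 at 1 to 5 FPKM to -3.30 at 500 or more.

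Genes for fast signalling stood on the high side. Immediate early genes, which are switched on within minutes of a stimulus, were higher in 8 of 23 cases and lower in none, against 5.00% and 28.8% of all genes, with a median of 0.32 (1.43 after rescaling, with 16 higher and 0 lower). The zinc finger factor gene Egr1 had 116 RPKM in the polysome library and 8.50 FPKM in RNA-seq (3.62), and Arc, a gene of neuronal plasticity, had 8.66 RPKM against 0.606 FPKM (2.59). Fos had 72.4 RPKM against 22.3 FPKM (1.66), with 5.49 FPKM at P1, and Junb 26.7 RPKM against 8.99 FPKM (1.47). Jun was the lowest member, with 32.4 RPKM against 58.3 FPKM (-0.83). Most members thus lay above the median of all genes (19 of 23).

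Feedback genes of FGF and ERK signalling, a list added after values were seen, were higher in 7 of 19 cases and lower in 1, against 5.00% and 28.8% of all genes, with a median of 0.54 (1.78 after rescaling, with 14 higher and 0 lower). Sprouty proteins restrain signalling from receptor tyrosine kinases. Spry1 had 122 RPKM in the polysome library and 13.2 FPKM in RNA-seq (3.11), and Spry4 had 34.3 RPKM against 4.59 FPKM (2.66). Dusp6, a phosphatase that switches off ERK, had 88.5 RPKM against 12.8 FPKM (2.70). At P1 the RNA-seq levels of Spry1, Spry4 and Dusp6 were 67.1, 16.1 and 82.6 FPKM, so for Dusp6 the P3 polysome value lay near the P1 value and above that of P3. Spry2 had 114 RPKM in the polysome library, 27.9 FPKM in RNA-seq and 43.5 FPKM at P1 (1.99 at P3). Phlda1 was the lowest member, with 3.08 RPKM against 7.65 FPKM (-1.08). The transcription factor targets were split, with Etv4 at 30.9 RPKM against 20.6 FPKM (0.57) and Etv5 at 29.3 RPKM against 38.1 FPKM (-0.37).

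Regulators of translation and growth were near or above the median of all genes. Of 24 mTOR and insulin pathway genes 18 lay above that median, with 2 higher and 1 lower past 2-fold and a median of 0.27 (1.42 after rescaling, with 14 higher and 1 lower). Eif4ebp1, the mTOR-controlled repressor of cap-dependent translation, had 44.7 RPKM in the polysome library and 18.6 FPKM in RNA-seq (1.22). Ddit4, a stress-induced inhibitor of mTOR, had 48.8 RPKM against 457 FPKM (-3.20), with 56.6 FPKM at P1. Stress response messenger RNAs with upstream reading frames, which hold back the main frame until eIF2 is phosphorylated, were higher in 1 of 15 cases and lower in 0, with a median of 0.25 (1.42 after rescaling, with 10 higher and 0 lower) and 14 above the median of all genes. Atf4, the factor this control is best known for, had 131 RPKM against 54.7 FPKM (1.25). Asns, asparagine synthetase and a target of Atf4, was the lowest of them, with 8.98 RPKM against 18.8 FPKM (-0.99).

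RNA silencing and decay factors were higher in 5 of 27 cases and lower in 0, against 5.00% and 28.8% of all genes, with a median of 0.01 (1.19 after rescaling, with 18 higher and 0 lower) and 22 above the median of all genes. The decapping enzyme gene Dcp2 had 21.7 RPKM in the polysome library and 7.29 FPKM in RNA-seq (1.45). Ago2, which carries microRNAs to their targets, had 19.6 RPKM against 6.62 FPKM (1.43), and Upf1, the helicase of nonsense-mediated decay, had 9.32 RPKM against 19.6 FPKM, the lowest ratio of the list. Splicing factor genes lay lower, with 23 of 46 lower past 2-fold and a median of -1.02 that became 0.20 after rescaling, with 5 higher and 7 lower. U2af1, which reads the splice acceptor, had 8.85 RPKM against 96.0 FPKM (-3.30), and Srsf9 had 90.0 RPKM against 50.9 FPKM (0.81). Core proteins of small nuclear ribonucleoproteins had 11 of 22 lower and 1 higher (median -0.98, 0.25 after rescaling, with 5 higher and 5 lower), from Snrpc with 2.40 RPKM against 87.5 FPKM (-4.70) to Lsm2 with 42.9 RPKM against 16.6 FPKM (1.31).

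Genes of large chromatin and transcription proteins mostly stood above the median of all genes, in 33 of 36 cases. Their ratios ran from -1.11 to 1.99, 21 above and 15 below zero, with 2 higher and 1 lower past 2-fold and a median of 0.15 (1.29 after rescaling, with 26 higher and 0 lower). The 2 higher ones were the histone acetyltransferase gene Crebbp, with 20.7 RPKM in the polysome library and 4.45 FPKM in RNA-seq (1.99), and Tet2, which oxidises methylcytosine, with 18.6 RPKM against 4.81 FPKM (1.75). Smarca4, the motor of the BAF remodelling complex, was lowest, with 20.0 RPKM against 44.2 FPKM (-1.11, but 0.09 after rescaling). Cytoskeleton giants and motors, also long proteins, had a median of -0.43 (0.65 after rescaling, with 8 higher and 0 lower) with 7 of 30 lower (23.3%, against 28.8% of all genes), among them the dynein heavy chain gene Dync1h1 with 10.1 RPKM against 40.6 FPKM (-1.91). Genes of C2H2 zinc finger proteins, the largest family of transcription factors, were above the median of all genes in 260 of 324 cases (median 0.02), and 9 were higher and 13 lower past 2-fold, but 177 higher and 2 lower after rescaling. Homeobox transcription factor genes, a list added later, had 6 of 54 higher and 9 lower and a median of -0.23 (0.95 after rescaling, with 26 higher and 4 lower).

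Cell cycle genes were higher in 5 and lower in 5 of 40 cases, 12.5% each against 5.00% and 28.8% of all genes (median 0.17, 1.37 after rescaling, with 28 higher and 0 lower). Ccnd2, the cyclin D2 gene of dividing neural progenitors, had 214 RPKM in the polysome library, 62.3 FPKM in RNA-seq (1.77) and 206 FPKM at P1. Foxm1, a factor that drives mitotic genes, had 38.5 RPKM against 10.8 FPKM (1.74), and the proliferation marker Mki67 48.0 RPKM against 17.3 FPKM (1.42). Cdk6, a kinase partner of D cyclins that was picked after its values were seen, had 28.8 RPKM against 3.10 FPKM (2.86) and 3.58 FPKM at P1. At the low end were the replication clamp gene Pcna, with 24.6 RPKM against 100.2 FPKM (-1.99), and Ccnb1, the cyclin of entry into mitosis, with 16.6 RPKM against 51.9 FPKM (-1.59). Over P1 RNA-seq in place of P3, the group's median was -0.68, on the other side of zero.

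The genes that name these cells were found in both libraries. Of 17 neural stem cell genes 10 were lower past 2-fold and none was higher, and the median was -1.23, or 0.00 after rescaling, with 2 higher and 2 lower. Sox2, the stem cell factor, had 96.5 RPKM in the polysome library and 389.6 FPKM in RNA-seq, and the related gene Sox3 had 4.26 RPKM against 32.0 FPKM (-2.65). The intermediate filament gene Nes had 17.1 RPKM against 38.6 FPKM (-1.13, but 0.07 after rescaling), and the RNA-binding protein gene Msi1 81.5 RPKM against 72.4 FPKM (0.17). Notch2, a receptor that maintains neural progenitors, was the highest, with 10.1 RPKM against 7.53 FPKM (0.38). The labelled cell type was thus visible on both sides of the comparison.

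Ventral midbrain genes stood above the median of all genes in 13 of 17 cases, with 3 higher and 3 lower past 2-fold and a median of 0.30 (1.43 after rescaling, with 12 higher and 1 lower). Msx1 and Lmx1b, homeobox factors of the midbrain floor plate, were at 9.80 and 4.43 RPKM in the polysome library, against 2.02 and 0.971 FPKM in RNA-seq (1.84 and 1.46). Shh, the ventral morphogen, had 3.19 RPKM against 2.64 FPKM (0.20), while P1 RNA-seq held 50.6 FPKM. Foxa2, the floor plate factor, had 2.36 RPKM, 0.830 FPKM and 18.4 FPKM in the same 3 libraries. For Shh and Foxa2 both P3 levels lay far below that of P1, while Msx1 was at 7.49 FPKM at P1, below its polysome value. Ddc, which makes dopamine from its precursor, was the lowest, with 0.418 RPKM against 6.93 FPKM (-2.48).

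Neuronal genes also had their highest median level at P1 but, unlike midbrain genes, a lower one in the polysome library than in P3 RNA-seq. Of 20 genes 11 were lower and none was higher, with a median of -1.37 (-0.45 after rescaling, with 5 higher and 3 lower). Mapt, the microtubule protein tau, had 1.54 RPKM in the polysome library and 18.5 FPKM in RNA-seq (-2.94), and the growth cone gene Gap43 had 131 RPKM against 82.9 FPKM (0.65). Tubb3, neuronal tubulin, had 6.49 RPKM in the polysome library, 22.2 FPKM in P3 RNA-seq and 359 FPKM in P1 RNA-seq. The median levels of the group were 4.29 RPKM, 11.3 FPKM and 51.9 FPKM in these libraries.

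Glial genes as groups showed another order, with median polysome levels at P3 near the median RNA-seq levels of P1. Of 18 oligodendrocyte and myelin genes 16 were lower and none was higher than in P3 RNA-seq, with a median of -4.08 (-3.64 after rescaling, with 0 higher and 13 lower). Their median level was 1.54 RPKM in the P3 polysome library, 56.2 FPKM in P3 RNA-seq and 2.01 FPKM in P1 RNA-seq. Mbp, a main protein of myelin, had 1.51 RPKM in the polysome library, 633 FPKM in P3 RNA-seq (-7.98) and 4.39 FPKM at P1. Sox10, the factor that sets up the oligodendrocyte programme, had 1.66 RPKM, 74.8 FPKM (-4.83) and 1.04 FPKM. Gpr17, a receptor of maturing precursors, had 0.975 RPKM, 109 FPKM (-5.80) and 0.616 FPKM. In each of these genes the P3 RNA-seq library stood alone.

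Only 2 of the 18 genes, the lineage factors Olig2 and Nkx2-2, lay within 2-fold. Olig2, which specifies motor neurons and oligodendrocytes, had 99.6 RPKM in the P3 polysome library, 129.6 FPKM in P3 RNA-seq (-0.38) and 55.7 FPKM in P1 RNA-seq. Nkx2-2, a ventral homeobox factor, had 46.3 RPKM, 56.1 FPKM (-0.27) and 32.5 FPKM. Olig1 was lower past 2-fold, with 172 RPKM, 456 FPKM (-1.40) and 101 FPKM. These genes were expressed at P1 already, whereas Mbp, Sox10 and Gpr17 were at 4.39, 1.04 and 0.616 FPKM there.

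Astroglial genes were lower in 22 of 23 cases and higher in none, with a median of -3.06 (-1.84 after rescaling, with 1 higher and 16 lower) and median levels of 28.1 RPKM in the P3 polysome library, 325 FPKM in P3 RNA-seq and 38.8 FPKM in P1 RNA-seq. Agt, angiotensinogen, had 2.30 RPKM in the polysome library, 297 FPKM in P3 RNA-seq (-6.50) and 0.323 FPKM at P1. Apoe, the lipid carrier of astrocytes, had 78.9 RPKM, 3154 FPKM (-5.30) and 56.0 FPKM. Gfap, the intermediate filament of astrocytes, had 4.06 RPKM, 142 FPKM (-4.82) and 0.743 FPKM. Mt3, a metallothionein, was the 1 member within 2-fold, with 361 RPKM, 386 FPKM (-0.10) and 46.5 FPKM, so it was high in the polysome library as well as in P3 RNA-seq.

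Set against P1 control RNA-seq in place of P3, the medians of the glial groups came near zero, at 0.12 for oligodendrocyte and -0.11 for astroglial genes, while those of the midbrain and neuronal groups became -2.02 and -2.96. With each ratio taken from its median over all genes, the polysome level was nearer to P1 than to P3 RNA-seq for 6910 of all 12790 genes (54.0%). That held for 15 of 18 oligodendrocyte, 21 of 23 astroglial and 19 of 21 glycolysis genes. It also held for 76 of 80 cytosolic ribosomal protein and 58 of 77 oxidative phosphorylation genes, so it was not particular to glial genes. The polysome level was nearer to P3 than to P1 RNA-seq for 12 of 17 ventral midbrain and 16 of 20 neuronal genes, against 46.0% of all genes. Nearness to P3 was not particular to these groups either, since it held for 40 of 46 splicing factor and 20 of 22 cytosolic chaperone genes. Both ratios use the polysome library, so these counts place its values between the 2 RNA-seq libraries and test nothing. In bulk RNA a lower share of cells of a type and less RNA in each such cell cannot be told apart, and the makeup of the cells behind each library was not measured.

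**Figure D4:**
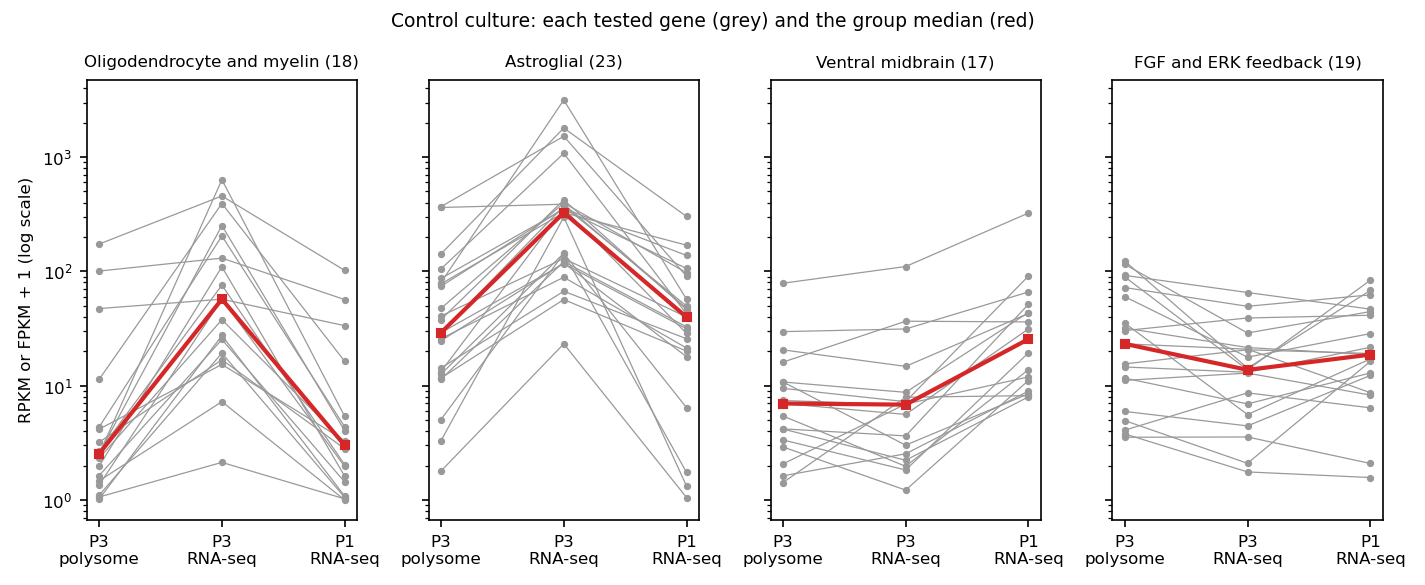
Levels of each tested gene (grey) and the group median (red) in the control culture, as RPKM + 1 in P3 polysomes and FPKM + 1 in P3 and P1 RNA-seq, on a log scale. Medians of the glial groups peak in P3 RNA-seq, with a median of 56.2 FPKM for oligodendrocyte genes against 1.54 RPKM in polysomes, while medians of ventral midbrain genes are alike in both P3 libraries and higher at P1.

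Markers of other cell types were mostly too low to enter. Of 16 microglial genes 2 were tested, among them Cd68 with 0.836 RPKM in the polysome library and 1.54 FPKM in RNA-seq (-0.47), and of 12 endothelial genes 2 were tested, Flt1 with 0.306 RPKM against 4.31 FPKM (-2.02) and Kdr with 3.03 RPKM against 4.47 FPKM (-0.44). Of 9 tested fibroblast and mural genes 7 were lower (median -2.39, -1.44 after rescaling, with 2 higher and 6 lower). The smooth muscle actin gene Acta2 had 11.7 RPKM against 211 FPKM (-4.07), and the matrix proteoglycan gene Dcn 7.39 RPKM against 3.64 FPKM (0.86).

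Some of the largest ratios fell on genes whose sequence is shared with another gene. The gamma protocadherins, neural adhesion proteins made from a cluster of first exons joined to common last exons, were higher in 21 of 22 cases (median 4.51). Pcdhgb8 had 119 RPKM in the polysome library and 0.448 FPKM in RNA-seq (6.38), and Pcdhga12 had 109 RPKM against 2.55 FPKM (4.95). Apart from Pcdhgc3, with 204 RPKM against 358 FPKM (-0.81), the polysome values of the cluster lay close to one another while the RNA-seq values did not, as the flat row of points in the plot of levels shows. The alpha protocadherins, with the same gene structure, were higher in 12 of 14 cases (median 2.86), and Pcdha1 and Pcdha12 were at 9.69 and 9.85 RPKM, against 0.0277 and 5.29 FPKM in RNA-seq. The beta protocadherins, whose genes share no last exons, were higher in 0 and lower in 5 of 16 cases (median -0.73, 0.02 after rescaling, with 3 higher and 1 lower). All 3 lists were added after values were seen.

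The same held for genes that overlap. Snurf and Snrpn lie on 1 transcript and were at 43.8 and 43.8 RPKM in the polysome library, against 0.684 and 63.8 FPKM in RNA-seq. Peg3os, named as the opposite strand of the imprinted gene Peg3, was at the floor in the polysome library and at 85.7 FPKM in RNA-seq, while Peg3 had 75.2 RPKM and 46.3 FPKM (0.69). Of 29 tested genes named as pseudogenes 12 were higher and 4 lower (median 0.62). Tubb2a-ps2 had 136 RPKM in the polysome library and 0.881 FPKM in RNA-seq, while Tubb2a had 88.9 RPKM against 544 FPKM (-2.60). Ratios of such genes are uncertain, since the sources used here do not say how either assay assigned shared reads or whether it used strand. Without the histone clusters, protocadherins and genes named as pseudogenes, 547 genes were higher and 3667 lower of 12652, with a median of -0.50.

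The Lin28a culture, whose P3 libraries share none with the control pair, gave a like picture. There 553 genes (4.31%) were higher and 3053 (23.8%) lower of 12844, with a median of -0.41. Across the 12563 genes tested in both cultures the ratios had a Pearson correlation of 0.952 and a Spearman correlation of 0.931, which describe genes within the same pair of assays, and genes are not independent replicates. Of the genes higher in the polysome library, 434 were higher in both cultures, 79.8% of those in Lin28a and 68.0% of those in control. Of the lower genes 2761 were lower in both, 91.3% of those in Lin28a and 75.9% of those in control. The median was 7.97 in Lin28a and 7.54 in control for replication-dependent histones, -4.00 and -4.04 for ribosomal proteins, -2.67 and -2.76 for glycolysis, -3.74 and -4.08 for oligodendrocyte genes and 0.23 and 0.32 for immediate early genes. Spry1 had a ratio of 3.04 in Lin28a and 3.11 in control, Egr1 4.30 and 3.62, Gapdh -6.45 and -6.62, and Mbp -7.17 and -7.98. Cell cycle genes had a median of -0.26 in Lin28a and 0.17 in control, in both cases above the median of all genes.

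**Figure D5:**
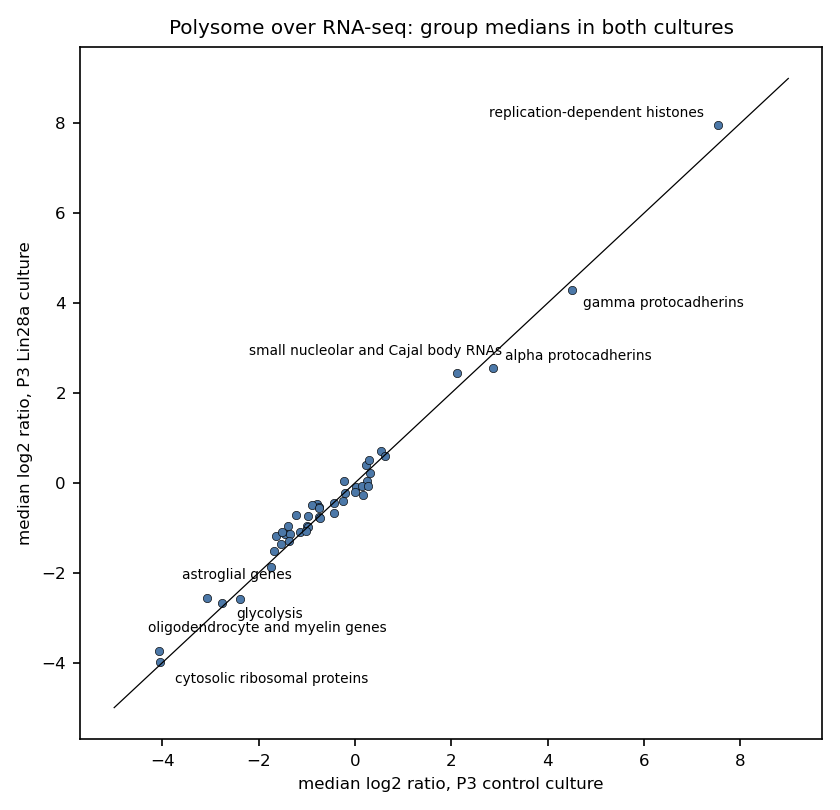
Median log2 ratio of polysome over RNA-seq for each gene group with at least 5 tested members, in the Lin28a culture (vertical axis) and the control culture (horizontal axis) at P3, with the line of equal values. Group medians lay along the line, from -3.74 in Lin28a and -4.08 in control for oligodendrocyte genes to 7.97 and 7.54 for replication-dependent histones.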

How the data were processed

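The 2 libraries were a polysome and an RNA-seq library of P3 control neural stem cells, 1 of each, and their groups were taken from the sample titles. The authors deposited 1 value per RefSeq gene. For RNA-seq the authors deposited FPKM (fragments per length of gene, scaled to the library), as the tools named and the values show. Polysome values, deposited in the same gene layout, are read as RPKM, since low genes step in whole reads. The file headers name no unit. Bowtie 1.0.0, TopHat2 2.0.6, Cufflinks 2.1.1 and build mm9 are listed without roles per the submitters' processing notes. The treatment of shared reads and of strand is not stated there. The descriptions call both libraries poly(A)-selected, while a total RNA kit is named for library construction. Total depth is unknown, so no interval is given. All per-sample columns belonged to the series (0 of other samples).

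Tables were joined on gene symbol, 1 was added to each value, and the log2 ratio of polysome over RNA-seq was taken for genes at 1 or more in either library. Of 17919 symbols 16656 matched a reference name table (GRCm38.p6), used for names and starts alone. Differences past 2-fold were counted, each list was described by its counts and median beside all tested genes, and no p-value was computed. The ratio was checked on simulated data. The genes named are the 2 highest and 2 lowest of each list, the 10 highest and lowest coding and non-coding genes, and 16 single genes. Others were chosen after their values were seen. The members and lists were chosen with earlier results of these data known, and 10 lists were added later. Alternatives changed the pseudocount (0.1, 5), the filter (5 in both libraries, or none), the scaling, the RNA-seq passage and the culture. A comparison by protein length needed sequences not used here. Calculations ran in Python 3.11.15 (numpy 2.4.6, pandas 2.3.3, matplotlib 3.10.9).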

Additional observations from a re-analysis of the deposited data

Results flagged for a closer look

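Ratios of polysome over RNA-seq past 2-fold in opposite directions in the 2 cultures were seen for 4 very short non-coding genes. Snora30 was at 2.38 in Lin28a and -5.68 in control, Mir703 at 5.53 in Lin28a and -3.22 in control, Snora43 at -1.90 in Lin28a and 2.13 in control, and Snora15 at -5.10 in Lin28a and 1.00 in control. In each case 1 RNA-seq library listed the gene at the floor, so these values on the log2 scale after adding 1 are not fold changes, and the difference between cultures was not tested. Polysome levels of the same genes were close in both cultures, with 4.20 RPKM in Lin28a and 4.58 in control for Snora30, 45.1 and 43.9 for Mir703, 2.43 and 3.36 for Snora43, and 1.74 and 1.01 for Snora15.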

How the results depend on the processing

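No paired analysis was possible because each group held 1 library, and for the same reason no library could be left out. A pseudocount of 5 gave 281 genes higher and 2346 lower, and genes at 5 or more in both libraries gave 209 and 2409. Subtracting the median gave 1573 higher and 1945 lower, and rescaling to the same protein-coding sum gave 4261 and 936. Other settings kept both counts within 1.5 times. Of 50 list medians 17 changed sign when rescaled, 3 of them among the 25 past 2-fold, cytosolic chaperones (0.08), splicing factors (0.20) and neural stem cell genes (0.00), as did Nes (0.07) and Smarca4 (0.09). For genes at 5 or more in both libraries the small nucleolar RNAs, with few genes left, were at -4.11. With P1 control RNA-seq, each over its own tested genes, oligodendrocyte genes had a median of 0.19, Gfap was at 1.54, Agt at 1.32, Dbx2 at 0.94, Apoe at 0.49, Fbxo36 at 0.33, Mir22hg at 0.18, Acsbg1 at 0.03, Klhl29 at -0.01, Rmst at -0.05, Lmx1b at -1.35, Mir703 at 5.49, Snora28 at 3.33 and Snora30 at 2.48. In the Lin28a culture Mir703 was at 5.53 and Snora30 at 2.38. The cause of these shifts was not tested, and the rescaling moved low genes less than high ones, since 1 was added to each value. The planned comparison by protein length was not run. With 1 library a side and unknown depth, neither culture variation nor counting error can be set beside a ratio.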

Other observations

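Large families that took no place above had medians near that of all genes, on either side of it. Lower genes made up 37.1% of solute carriers, 8.89% of ubiquitin-specific proteases and 26.9% of F-box and Kelch adaptors, against 28.8% of all genes. Higher genes made up 1.88%, 6.67% and 5.13% of these families, against 5.00%. Of 213 solute carrier genes 4 were higher and 79 lower in the polysome library (median -0.75, but 0.29 after rescaling, with 39 higher and 22 lower), from the glycine transporter gene Slc6a9, with 5.16 RPKM in the polysome library and 138 FPKM in RNA-seq (-4.50), to the mitochondrial carrier gene Slc25a30, with 26.0 RPKM against 6.15 FPKM (1.92). Ubiquitin-specific protease genes were higher in 3 and lower in 4 of 45 cases (median -0.21, but 0.98 after rescaling, with 22 higher and 0 lower), with Usp51 at 11.1 RPKM against 1.79 FPKM (2.11) and Usp20 at 5.04 RPKM against 19.4 FPKM (-1.76). F-box and Kelch adaptors of ubiquitin ligases had 4 of 78 higher and 21 lower (median -0.43, but 0.63 after rescaling, with 26 higher and 1 lower).

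Genes outside these lists with high ratios in both cultures, chosen after their values were seen, included Trp53i11, with 260.1 RPKM in the polysome library and 50.9 FPKM in RNA-seq (2.12 in Lin28a and 2.33 in control), and the adaptor gene Shc3, with 68.6 RPKM against 10.3 FPKM (2.37 in Lin28a and 2.62 in control). The chromatin factor gene Tcf20 had 37.2 RPKM against 6.38 FPKM (2.41 in Lin28a and 2.37 in control). The centromere chaperone gene Hjurp had 20.9 RPKM against 2.34 FPKM (2.11 in Lin28a and 2.71 in control). The kinase gene Mapk9 was listed at the floor in P3 control RNA-seq but at 18.4 FPKM at P1 and 13.1 RPKM in the polysome library, and Amd1, of polyamine synthesis, was at 22.6 FPKM in P3 control RNA-seq and 0.560 FPKM at P1.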
